A study of Mus musculus with 20 samples.

Results

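The genes described here encode the translation initiation, elongation and termination factors of the cytosol, with the kinases and methyltransferases named after them. They were chosen by symbol: all genes beginning with Eif1 to Eif6, Eef1 or Eef2, Gspt or Pabpc, and Etf1, without Eif4e, Eif4ebp1, Eif4ebp2, Eif2s3x and Eif2s3y. In the tables as deposited, 72 genes matched, 5 were left out by name, and the remaining 67 all reached 0.5 FPKM in at least 5 libraries. These 67 are members of 13174 genes tested and 13256 listed. FPKM divides the fragments of a gene by its transcript length and by the library's mapped fragments, so levels of different genes can be compared per length.

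RNA was sequenced from the hippocampus of Fmr1 KO mice and of C57 mice (WT), in females and in males, with 5 libraries in each of 4 groups. Titles of the mutant samples say KO, the genotype field says knockdown, and no age, allele or agent is given, so the title's word is used. All titles in the 4 groups also carry Con before the sample number, and they do not say what it stands for. The product of Fmr1 is FMRP, which binds mRNAs in neurons, and the series title names sex differences as a subject. The labels do not tell whether the 5 samples in each group were separate animals, so p-values reflect just the spread between samples, which may be technical.

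Protein synthesis begins when eIF2, loaded with GTP, brings the initiator tRNA to the small ribosomal subunit, where eIF1, eIF1A and eIF5 help to select the start codon and eIF3 serves as a scaffold. The eIF4 proteins bind the mRNA cap and unwind the leader, eEF1A delivers aminoacyl-tRNAs, eEF2 moves the ribosome along, and eRF1 (Etf1) with eRF3 (Gspt1, Gspt2) releases the finished chain. In neurons this machinery also works in dendrites, where FMRP is known to restrain translation of the mRNAs it binds. Many mRNAs of the elongation factors and poly(A)-binding proteins carry a pyrimidine tract at their 5′ end through which the kinase mTOR controls their own translation, a step that RNA levels do not measure.

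Stretches of promoter are shown for 4 members as examples, 1 for each searched motif, and for Eif2a, Eif2b1 and Eif5a, which pass a threshold below, as Eif3a also does. Etf1, the other member past a threshold, is named only. They are RefSeq windows of build GRCm38.p6, 30 bases before and 30 after the start, on the coding strand. Capitals mark a motif: TGACGTCA (the cAMP response element) in Eef2, CCGGAAG (an ETS factor motif) in Eef1b2, a pyrimidine tract in Eif3f, and CACGTG (an E-box) in Eif3a.
Eef2 (chr10:81176601-81176660, plus strand): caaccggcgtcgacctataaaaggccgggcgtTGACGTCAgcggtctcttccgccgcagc
Eef1b2 (chr1:63176801-63176860, plus strand): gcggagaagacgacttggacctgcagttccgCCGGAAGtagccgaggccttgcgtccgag
Eif3f (chr7:108934385-108934444, plus strand): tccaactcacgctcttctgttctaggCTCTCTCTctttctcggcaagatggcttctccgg
Eif3a (chr19:60790664-60790723, minus strand): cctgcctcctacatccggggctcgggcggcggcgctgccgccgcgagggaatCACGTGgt
Eif2a (chr3:58525791-58525850, plus strand): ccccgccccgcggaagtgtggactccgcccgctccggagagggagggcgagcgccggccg
Eif2b1 (chr5:124579102-124579161, minus strand): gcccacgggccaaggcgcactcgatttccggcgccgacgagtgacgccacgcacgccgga
Eif5a (chr11:69921929-69921988, minus strand): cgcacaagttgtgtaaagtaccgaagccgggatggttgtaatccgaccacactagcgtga

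A RefSeq window of 250 bases before to 50 after the start was matched by symbol for 50 of the 67 members. CACGTG, searched on both strands, occurred in 11 windows (22%), against 10.1% of the windows of tested genes and 7.17% of all windows. CCGGAAG, also on both strands, occurred in 15 (30%), against 17.4% and 9.17%. TGACGTCA on both strands was found only in Eef2 among these windows (2%), against 3.24% and 1.84%. The pyrimidine tract was defined as C followed by 7 of C or T on the coding strand between 20 bases before and 50 after the start. It occurred in 12 windows (24%), against 19.1% and 19.9%, and its members included Eef1a1, Eef1a2, Eif3a and Eif3f. The search did not require the tract to begin at the first base of the mRNA. Its share is therefore not that of mRNAs controlled by mTOR. No motif is contained in another. The windows had a median GC content of 61.7%, against 61.3% for tested genes. A match describes letters and is not a known binding site.

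Fmr1 itself, read as a check of the labels, was 10.6 ± 0.558 FPKM in female WT and 3.32 ± 0.327 in female KO libraries (SD, n = 5 each). In males it was 11.4 ± 0.527 and 3.56 ± 0.187. Every KO library lay below every WT library of its sex (exact two-sided permutation p = 0.0079 in each sex, the smallest that 5 against 5 allows). The summed level of 5 neuron markers (Rbfox3, Snap25, Syt1, Tubb3 and Slc17a7) was 682 to 757 FPKM across all libraries, so neuronal RNA was abundant in every library. No depth can be given, since FPKM are not counts.

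Some libraries also held RNA of neighbouring tissues. The 8 choroid plexus markers, all measured, summed to 12.6 to 914 FPKM in WT females and 43.2 to 1522 in KO females, and to 27.2 to 179 in WT males and 19.5 to 605 in KO males. Ttr exceeded 500 FPKM in 4 libraries: female WT 4, female KO 4, female KO 5 and male KO 2. The 3 measured pituitary markers of the 5 listed summed to at most 4.52 FPKM outside female KO and reached 129 there, with Prl above 4 FPKM in female KO 2, 3 and 4. The 5 markers of vessel wall, meninges and blood summed to 204 to 358 FPKM in female WT and 287 to 441 in female KO libraries, and 1 of them passed the threshold used below in KO females and 2 between the sexes within KO. The 5 skeletal muscle markers summed to 5.57 to 8.72 FPKM in male WT and to under 4.0 elsewhere. No listed marker that was measured stood at 0 in every library. In bulk tissue, fewer cells of a type and less RNA per cell cannot be told apart.

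The translation factor mRNAs were abundant and steady. Their median level was 19.1 FPKM, against 5.61 over all tested genes, and together they took a median of 1.13% of all FPKM in WT females and 1.12% in KO females, and 1.15% in WT males and 1.14% in KO males. The median coefficient of variation within groups was 5.45%, against 9.53% over tested genes, and 57 of 67 members were under 10%. This comparison was not made with genes of like level. In 58 members the highest of all 20 libraries was less than 1.5 times the lowest.

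**Figure D1:**
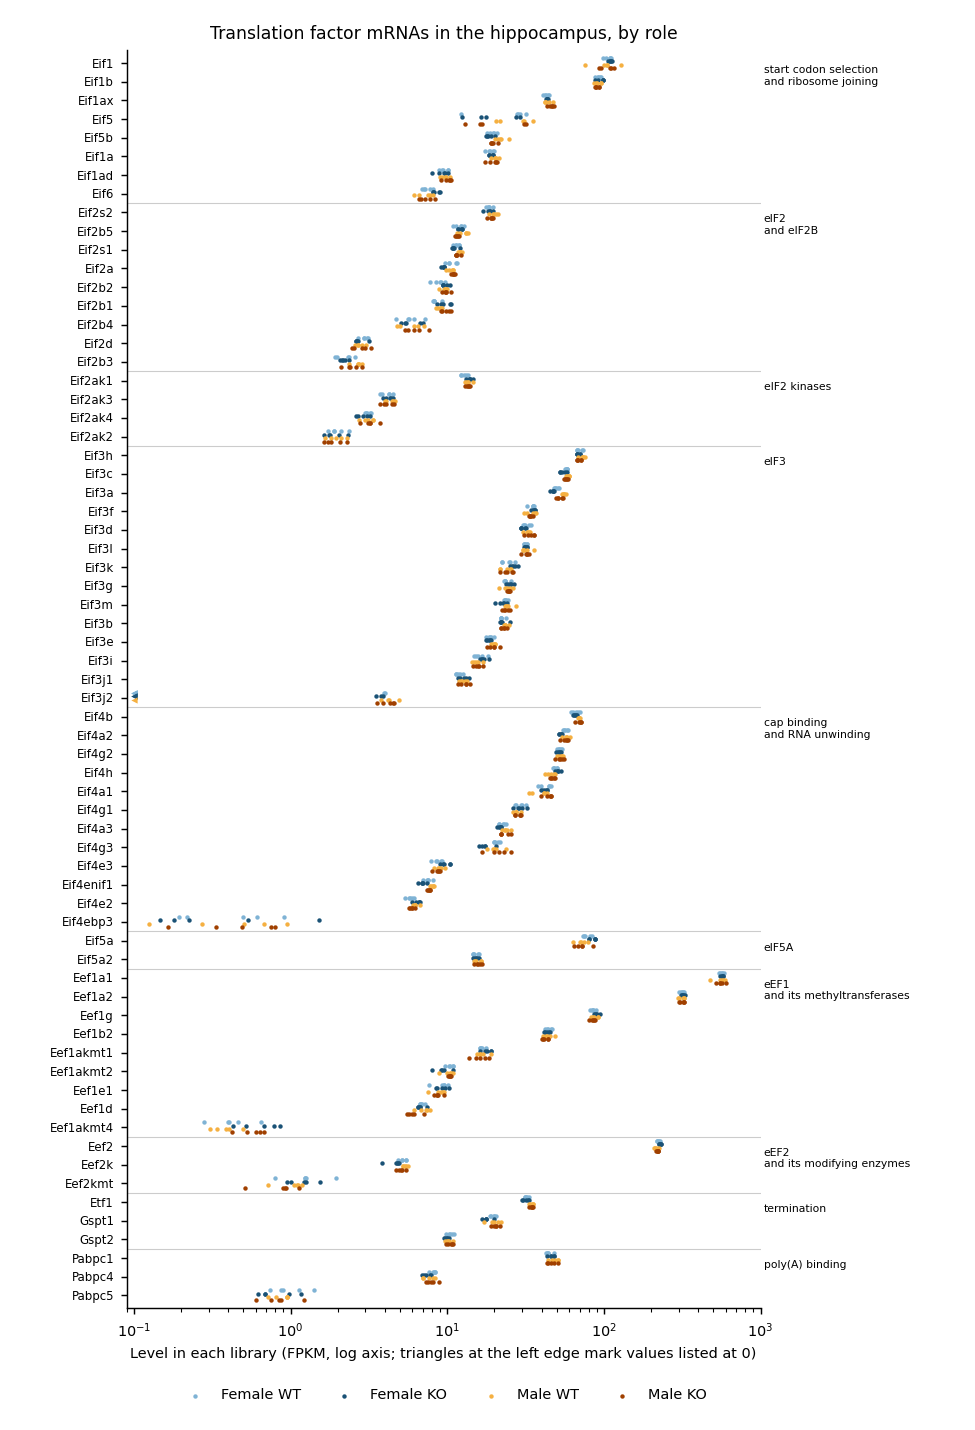
Level of each of the 67 members in each of the 20 libraries (FPKM on a log axis), ordered by role and by mean level, with 1 point per library coloured by group. Eef1a1, Eef1a2 and Eef2 stand at the right, most members form tight columns of points, and Eif5, Eif3j2, Eif4ebp3 and Eef1akmt4 are spread out.

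Elongation factors were the most abundant. Eef1a1, which encodes the general tRNA-delivering factor eEF1A1, had the highest level, with 479 to 600 FPKM across libraries and a mean of 560. Eef1a2, the form of neurons and muscle, followed at 299 to 331 FPKM, and Eef2, the translocase, at 209 to 232. These 3 genes made up 40.6% of the summed FPKM of all members, and the highest 10 made up 61.3%. The Eef1a1 level was 1.51 to 1.93 times that of Eef1a2 in every library, a ratio that averaged 1.79 ± 0.0808 in WT females and 1.77 ± 0.0447 in KO females (SD, n = 5 each), and 1.77 ± 0.159 in WT males and 1.77 ± 0.0822 in KO males. Eef1g and Eef1b2, subunits of the complex that recharges eEF1A with GTP, averaged 86.8 and 43.6 FPKM, and Eef1d, another subunit, only 6.70. The 4 groups overlapped in Eef1a1 and Eef1a2. Their KO differences in mean log2(FPKM + 1), the scale of all differences below, were 0.01 and 0.02 in females and 0.02 and 0.01 in males.

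Among start codon factors, Eif1 averaged 106 FPKM and its paralog Eif1b 92.4, and the X-linked Eif1ax (44.1) exceeded its autosomal paralog Eif1a (19.4) 2.07 to 2.54 times in every library. Eif6, which keeps the large ribosomal subunit from joining too early, was the lowest of this role at 7.63 FPKM. Of the eIF3 subunits, the 12 with letters a to m other than j averaged 16.1 (Eif3i) to 70.1 FPKM (Eif3h), a 4.36-fold range among mRNAs of 1 complex. Their coefficients of variation within groups were 2.64% to 7.21%. Among cap-binding and unwinding factors, Eif4b, a cofactor of the helicase eIF4A, led with 67.6 FPKM. The helicase mRNA Eif4a2 (55.9) exceeded its paralog Eif4a1 (41.9) in every library, by 1.16 to 1.66 times, and Eif4a3, the helicase of the exon junction complex, averaged 22.7.

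The mRNAs around eIF2 were lower. Eif2s2, the beta subunit, averaged 19.0 FPKM and Eif2s1, the alpha subunit whose phosphorylation slows initiation, 11.6. The 5 subunits of its exchange factor eIF2B ran from 2.39 (Eif2b3) to 12.1 FPKM (Eif2b5). Of the 4 kinases that phosphorylate eIF2, Eif2ak1 (the heme-regulated kinase) averaged 13.5 FPKM, Eif2ak3 (PERK, of the endoplasmic reticulum) 4.20, Eif2ak4 (GCN2, the sensor of uncharged tRNA) 3.08 and Eif2ak2 (PKR, the sensor of double-stranded RNA) 1.94. The libraries of Eif2ak1 (12.2 to 14.6 FPKM) lay above those of Eif2ak3 (3.703 to 4.65), which met those of Eif2ak4 (2.63 to 3.705) at their ends, and those of Eif2ak2 (1.63 to 2.38) lay lowest. Eif5a, which eases the ribosome through difficult sequences, averaged 77.0 FPKM and its paralog Eif5a2 15.4. Among termination and poly(A) factors, Etf1 averaged 33.2 FPKM, Gspt1 19.5, Gspt2 10.2, Pabpc1 46.3, Pabpc4 7.77 and Pabpc5 0.893. The lowest members were Eif4ebp3, an inhibitor of eIF4E, at 0.506 FPKM and Eef1akmt4, a methyltransferase of eEF1A, at 0.512.

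The comparison of KO with WT describes how these mRNAs differed between Fmr1 KO and C57 libraries in each sex. The titles name the controls only as C57, so a difference of strain or batch cannot be told apart from genotype. In females 1 member passed an adjusted p under 0.05 (limma, Benjamini-Hochberg over all tested genes): Eif2a, which fell. This is 1 of 67, where 3.32% of all tested genes passed. At an unadjusted p under 0.05 stood 18 members (8 higher and 10 lower in KO), or 26.9%, against 19.5% of all tested genes. The median difference of the members was -0.0033, against 0.0052 over all tested genes, with 31 above 0 and 36 below.

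Eif2a encodes eIF2A, an initiator tRNA-binding protein that is distinct from the alpha subunit of eIF2 (Eif2s1). It lies on the plus strand of chromosome 3, 58525821 to 58557501 (mm10). Female WT libraries held 9.68, 10.3, 10.2, 11.4 and 11.5 FPKM, and female KO libraries 9.51, 9.16, 9.48, 9.47 and 9.47. All 5 KO values lay below the lowest WT value, the lowest WT library was close to them, and the KO values were closer together (SD 0.147 against 0.779). The difference was -0.15 (SE 0.04, 95% interval -0.24 to -0.07, adjusted p = 0.0449). In males WT libraries held 9.82 to 10.9 FPKM and KO libraries 10.6 to 11.2, overlapping, with a difference of 0.05 (SE 0.04, adjusted p = 0.799). The difference between the KO effects of both sexes was 0.20 (SE 0.06) and did not pass (adjusted p = 0.292).

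The call of Eif2a was lost when the libraries with high Ttr or with high Prl were left out (differences -0.13 and -0.14, adjusted p = 0.251 and 0.363), and when a smooth trend on GC content was removed (-0.11, adjusted p = 0.155). Here and below, the Prl setting takes female KO 2, 3 and 4 out of that group of 5, and the Ttr setting takes out female KO 4 and 5. The part of the smaller number of libraries in the lost calls was not tested. Of the 10 fits that each leave out 1 female library, the Eif2a call was kept only without female WT 1, and the adjusted p over them ran from 0.0218 to 0.12. Serp1, the tested gene that overlaps Eif2a on the opposite strand, had a KO difference of 0.04 in females (adjusted p = 0.659).

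No other member passed in females. Female groups did not overlap for 4 members (Eif6 higher in KO, and Eif2a, Eif3a and Eif4a2 lower), where 5.99% of all tested genes had groups that did not overlap. Eif4a2 was 54.6 to 58.7 FPKM in WT and 51.4 to 53.9 in KO libraries (difference -0.10, SE 0.03, adjusted p = 0.1). Eif6 was 6.91 to 8.06 FPKM in WT and 8.11 to 9.0 in KO libraries (0.17, SE 0.07, adjusted p = 0.162).
The smallest p-values after Eif2a belonged to Eif4e2, an alternative cap-binding protein that represses translation. It was 5.79 ± 0.278 FPKM in female WT and 6.43 ± 0.326 in female KO libraries (0.13, SE 0.04, adjusted p = 0.0759), and 6.29 ± 0.244 and 5.90 ± 0.199 in males (-0.08, SE 0.04, adjusted p = 0.604). The next were Eif2b1 (described below), Eif4e3, another cap-binding paralog (0.16, SE 0.05, adjusted p = 0.0983), Eif4a2, Eif2ak1 (0.11, SE 0.04, adjusted p = 0.102), Eef2k, the kinase that inactivates eEF2 (-0.15, SE 0.05, adjusted p = 0.122), and Eif4enif1, a carrier that binds eIF4E (-0.10, SE 0.04, adjusted p = 0.129).

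In males 0 members passed, where 0.0455% of all tested genes did, and male groups overlapped for all 67 members (2.0% of all tested genes did not overlap). With limma's unadjusted p under 0.05 stood 8 members (3 higher and 5 lower), or 11.9%, against 8.69% of all tested genes. The median difference was -0.0058, against -0.0015 over all tested genes. The smallest p-values were those of Eef1d (7.09 ± 0.633 FPKM in WT, 6.07 ± 0.618 in KO, difference -0.19, SE 0.06, adjusted p = 0.305) and of Eif5b, the factor that joins the ribosomal subunits. Eif5b was 20.2 to 24.6 FPKM in male WT and 19.0 to 21.0 in male KO libraries (-0.16, SE 0.05, adjusted p = 0.315). The skeletal muscle markers, which were higher in male WT, moved with this comparison, and their part in these values was not tested.

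The intervals bound how much most members can have differed. In females 53 of 67 members and in males 58 had a 95% interval of the KO difference within 0.25 of 0 in either direction, against 59.2% and 67.7% of all tested genes, and 49 members did so in both sexes. The tested genes were not matched to the members for level. Eef2, for example, was 223 ± 4.0 and 228 ± 3.69 FPKM in female WT and KO and 215 ± 6.70 and 220 ± 2.53 in male WT and KO. Its KO difference was 0.04 in each sex, with intervals of -0.01 to 0.09.

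**Figure D2:**
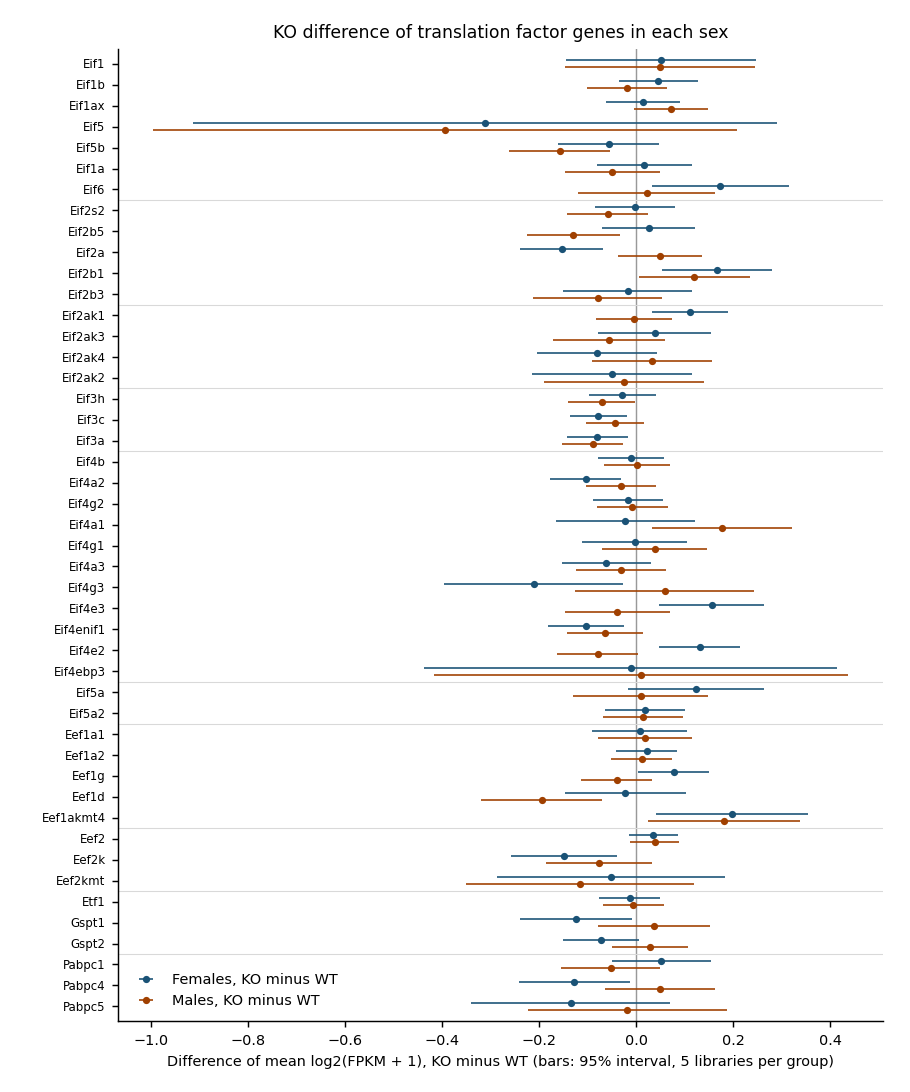
KO difference of the named translation factor genes and of Eif5 in females and in males, in mean log2(FPKM + 1), with 95% intervals from 5 libraries per group. Eif3j2, with values listed at 0, is not drawn. Most intervals cover 0 and lie within 0.25 of it; Eif2a is at -0.15 in females and at 0.05 for males.

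Averaging both KO effects gives the mean KO difference of the 2 sexes. Such a mean can pass where mainly 1 sex differs, so a call is not by itself a change in both. This mean passed for 2 members of 67, where 3.22% of all tested genes passed: Eif3a fell and Eif2b1 rose. Eef1akmt4, at a mean of only 0.512 FPKM, had the next smallest p and did not pass (0.19, SE 0.05, adjusted p = 0.0555). Its difference was 0.20 in females and 0.18 in males. With unadjusted p under 0.05 stood 12 members (17.9%, against 18.0% of all tested genes). Of the 6 oligodendrocyte markers 1 passed in this mean and 1 in KO females, with median differences of -0.14 in females and -0.16 in males. Their summed level was 399 to 676 FPKM in female WT and 429 to 537 in female KO, and 521 to 645 in male WT and 472 to 574 in male KO libraries. The 5 astrocyte markers had median differences of 0.06 in females and 0.11 in males. The 5 neuron markers had 0.08 and 0.03, and the 4 microglia markers -0.04 and -0.05. None of these passed in a KO comparison. The part of these cell types in the values below was not tested.

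Eif3a encodes the largest subunit of eIF3 and lies on the minus strand of chromosome 19, 60761116 to 60790693. Female WT libraries held 48.9, 49.6, 51.7, 48.4 and 50.8 FPKM, and female KO libraries 47.7, 48.1, 47.4, 45.2 and 47.3. Male WT libraries held 55.3, 55.3, 57.1, 55.1 and 54.4 FPKM, and male KO libraries 54.2, 54.7, 50.7, 51.0 and 49.7. The female groups did not overlap, and the male groups met where 1 KO library (54.7) exceeded the lowest WT library (54.4). The difference was -0.08 in females and -0.09 in males, and their mean was -0.08 (SE 0.02, 95% interval -0.13 to -0.04, adjusted p = 0.0353). Of the other 11 subunits a to m, none passed; Eif3c had -0.06 (adjusted p = 0.104) and Eif3h -0.05 (adjusted p = 0.26).

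Eif2b1 encodes the alpha subunit of eIF2B, a regulatory subunit of the exchange factor that reloads eIF2 with GTP, and lies on the minus strand of chromosome 5, 124570213 to 124579131. Female WT libraries held 8.28, 8.15, 8.25, 8.27 and 9.29 FPKM, and female KO libraries 10.5, 10.5, 9.37, 9.11 and 8.62. Male WT libraries held 8.50, 9.05, 9.32, 9.18 and 8.68 FPKM, and male KO libraries 9.20, 10.3, 10.6, 9.09 and 9.88. KO libraries were higher on average in both sexes, and the groups overlapped in both. The difference was 0.17 in females and 0.12 in males, with a mean of 0.14 (SE 0.04, 95% interval 0.06 to 0.22, adjusted p = 0.0493). The other eIF2B subunits did not pass: Eif2b2 had 0.08 (adjusted p = 0.207), Eif2b4 0.04 (adjusted p = 0.806), Eif2b3 -0.05 (adjusted p = 0.616) and Eif2b5 -0.05 (adjusted p = 0.418).

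Both calls were close to the threshold. Of the 20 fits that each leave out 1 library, Eif3a kept its call in 9 (adjusted p 0.0241 to 0.0675) and Eif2b1 in 5 (0.0292 to 0.0889). Without the libraries with high Ttr the adjusted p was 0.0667 for Eif3a and 0.0581 for Eif2b1, without those with high Prl 0.186 and 0.191, and with the GC trend removed 0.0747 and 0.059, at differences of -0.07 to -0.09 for Eif3a and 0.14 to 0.17 for Eif2b1.

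**Figure D3:**
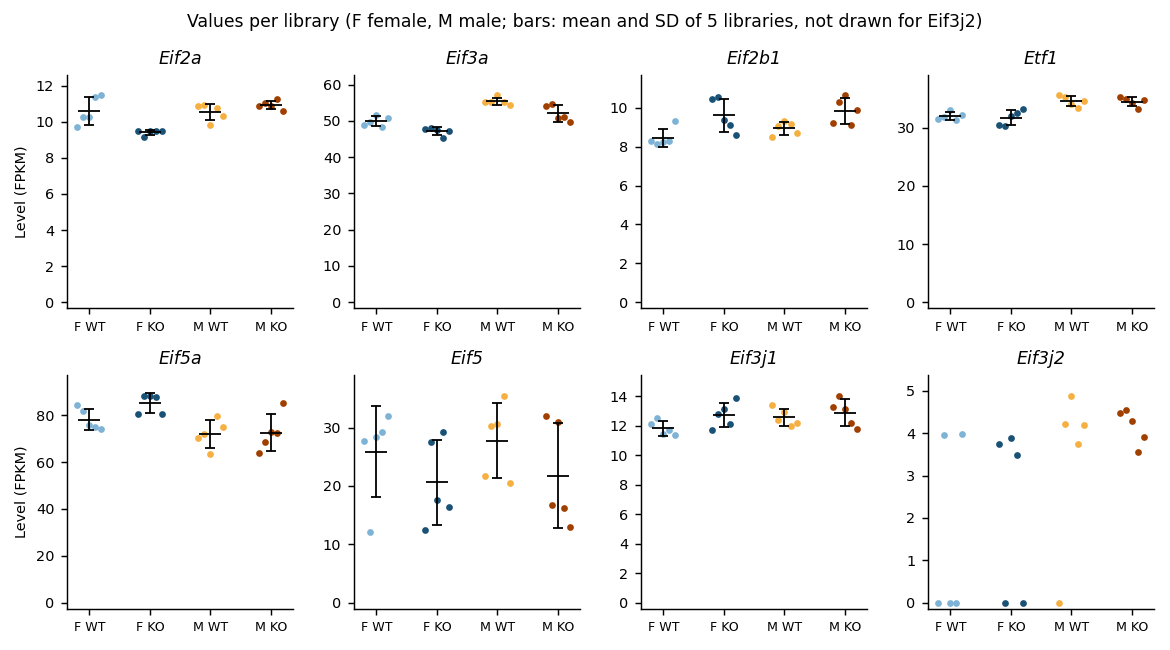
Level (FPKM, axes from 0) of 8 members in each library, with the mean and SD of each group of 5 except for Eif3j2. Eif2a is lowest in female KO, Eif3a is lower in KO than in WT in both sexes, Etf1 is higher in males, Eif5 is spread in every group, and Eif3j2 is listed at 0 in 6 libraries.

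Whether the KO effect differed between the sexes was tested directly. This difference passed for 0 of 67 members, where 0.0455% of all tested genes passed, and limma's unadjusted p was under 0.05 for 9 members (13.4%, against 10.02%). Eif4e2 had the smallest p (-0.21, SE 0.06, adjusted p = 0.269), followed by Eif2a. Eif4e3 (-0.19, SE 0.07, adjusted p = 0.396) and Eif4g3, an eIF4G scaffold (0.27, SE 0.12, adjusted p = 0.484), were also among the smallest. Across the 67 members the KO differences in females and in males had the same sign in 40. Pearson's r between them was 0.54 across genes (n = 67) and 0.18 without Eif3j2 and Eif5 (n = 65), so it rested on those 2 genes.

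Between the sexes within WT, 0 members passed, where 0.129% of all tested genes did, and limma's unadjusted p was under 0.05 for 13 (11 higher and 2 lower in males), or 19.4%, against 10.3%. Within KO, limma's unadjusted p was under 0.05 for 23 members (14 higher and 9 lower in males), or 34.3%, against 23.3%. After adjustment 4 members passed there, where 5.38% of all tested genes passed: Eif2a, Eif3a and Etf1 were higher and Eif5a lower in males. After upper-quartile rescaling 5 passed, all higher in males (Eif2a, Eif3a, Eif3d, Eif4enif1 and Etf1), and Eif5a had an adjusted p of 0.0521. Groups of both sexes did not overlap for 2 members within WT (Eif3a and Etf1, both higher in males; 2.18% of all tested genes) and for 6 within KO (8.02%). These 6 were Eif2a, Eif3a, Etf1, Eif4a3 and Eif4enif1, higher in males, and Eef2, lower.

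Eif3a was higher in males in each genotype, by 0.15 within WT (SE 0.03, adjusted p = 0.0603) and 0.14 within KO (SE 0.03, adjusted p = 0.018), and by the values above no male library lay below a female library of its genotype. Etf1 encodes eRF1, which recognises stop codons, on chromosome 18, 34902785 to 34932007 (minus strand). Female WT libraries held 31.5, 31.8, 33.0, 31.4 and 32.2 FPKM, and male WT libraries 35.5, 35.2, 34.0, 33.4 and 34.6. Female KO libraries held 30.4, 30.2, 32.0, 32.6 and 33.2 FPKM, and male KO libraries 35.2, 34.8, 34.1, 33.2 and 34.7. Males were higher in both genotypes, by 0.11 within WT (SE 0.03, adjusted p = 0.211) and 0.12 within KO (SE 0.03, adjusted p = 0.0309).

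Eif2a was higher in male than in female KO libraries by 0.20 (SE 0.04, adjusted p = 0.0164), and within WT the sexes differed by -0.01 (adjusted p = 0.971). Eif5a lies on the minus strand of chromosome 11, 69916714 to 69921958. It was 80.6, 88.4, 88.4, 87.9 and 80.7 FPKM in female KO libraries and 64.0, 68.4, 72.9, 72.3 and 85.3 in male KO libraries. All but 1 of the male libraries lay below every female library. The difference within KO was -0.23 (SE 0.07, adjusted p = 0.0464) and within WT -0.12 (SE 0.07, adjusted p = 0.551). None of the 4 calls held without the libraries with high Ttr (adjusted p 0.0637 to 0.21), where the differences were 0.20 for Eif2a, 0.10 for Eif3a, 0.15 for Etf1 and -0.22 for Eif5a. Nor did they without those with high Prl (0.207 to 0.455), at 0.18, 0.13, 0.11 and -0.16 in the same order. With all libraries the differences were 0.20, 0.14, 0.12 and -0.23 in the same order. These settings fit fewer libraries, and the part of that in the lost calls was not tested. With the GC trend removed the calls were also lost (0.0846 to 0.172), at 0.12 for Eif2a, 0.10 for Eif3a, 0.08 for Etf1 and -0.16 for Eif5a. That setting called Eef1a2 instead, as higher in males. In the main fit Eef1a2 had -0.02 there (adjusted p = 0.74), so its direction changed with this setting. Of the 10 fits that each leave out 1 KO library, Eif2a kept its call in 10, Eif3a in 9 (lost without male KO 1, adjusted p = 0.0553), Etf1 in 4 (0.034 to 0.0834) and Eif5a in 2 (0.0167 to 0.129).

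GC content moved with these comparisons. The slope of log2 level on transcript GC content was 0.0618 to 0.0759 per 10 percentage points in female KO libraries and -0.0951 to 0.0311 in all others, with no overlap. Across the 67 members, the KO difference in females correlated with GC content at Pearson's r of 0.21, against 0.27 across tested genes, and the difference of males from females within KO at -0.37, against -0.39. These are correlations across genes that share libraries. Those of the members include Eif3j2, with values listed at 0, and Eif5, and were not repeated without these genes. Of the 33 members above the median GC content of 49.8%, 19 were higher in female KO than in female WT, against 12 of the other 34. Eif2a (40.0% GC), Eif3a (44.5%) and Etf1 (44.3%) were on the low side, and Eif5a (55.0%) on the high side.

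**Figure D4:**
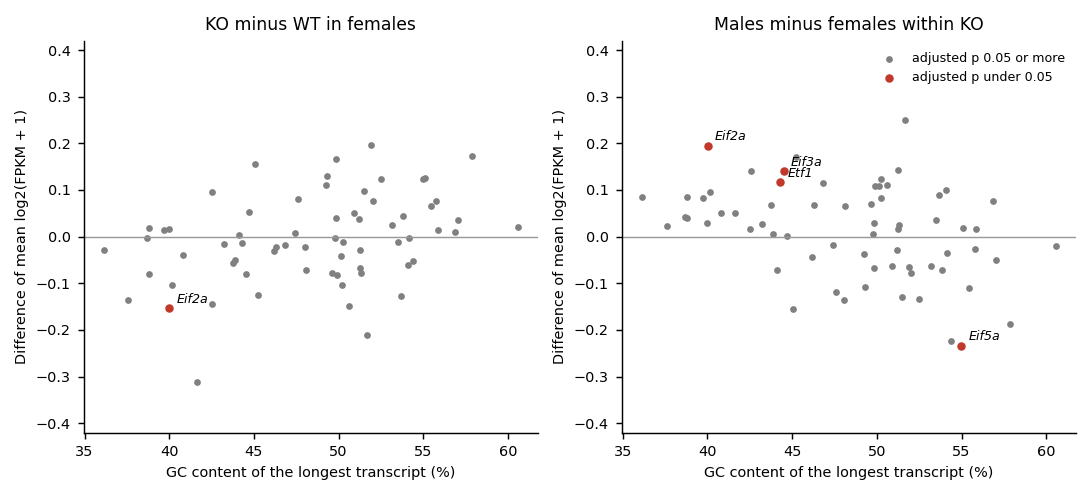
Difference of mean log2(FPKM + 1) against GC content of the longest transcript (%) for 66 members (Eif3j2, with values listed at 0, is not drawn), for KO minus WT in females and males minus females within KO. Genes with an adjusted p under 0.05 are red. Counting all 67 members, the differences of males from females within KO were positive in 26 of the 34 at or below the median GC content and in 16 of the 33 above it.

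The highest coefficients of variation within groups were those of Eif4ebp3 (77.1%), Eif3j2 (63.0%), Eif5 (32.1%), Eef2kmt (25.2%), Eef1akmt4 (24.8%) and Pabpc5 (24.3%). Eif5 averaged 24.0 FPKM and the other 5 under 3, and Eif5 was singled out after its values were seen. Eif5 encodes the factor that makes eIF2 hydrolyse GTP at the start codon (chromosome 12, 111538016 to 111546752, plus strand). Female WT libraries held 27.8, 12.2, 28.4, 29.2 and 32.0 FPKM, and female KO libraries 12.5, 27.5, 17.6, 29.2 and 16.4. Male WT libraries held 21.7, 30.3, 30.7, 35.5 and 20.4 FPKM, and male KO libraries 32.1, 16.8, 30.9, 16.2 and 12.9. All groups overlapped. The lowest library held 20.4 FPKM in male WT, against 12.2 in female WT, 12.5 in female KO and 12.9 in male KO. The KO difference was -0.31 in females (SE 0.29, 95% interval -0.91 to 0.29) and -0.39 in males (SE 0.29, interval -1.0 to 0.21), so a fall of up to those lower limits is not excluded.

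Eif3j2 was listed at 0 in 6 libraries (female WT 1, 3 and 4, female KO 2 and 5, and male WT 1) and at 3.49 to 4.89 FPKM in the other 14. It has a near-identical copy, Eif3j1, the gene of the loosely bound j subunit of eIF3: the longest transcripts were 99.8% identical over 2369 aligned bases, and 90.8% of the 50-base stretches of Eif3j2 also occurred in Eif3j1. In the other 9 paralog pairs compared, such as Eef1a1 with Eef1a2, 0% of 50-base stretches were shared. Reads of Eif3j1 and Eif3j2 can thus be split between them in the authors' counting, and a listed 0 can be a failed estimate. Eif3j1 was 11.4 to 13.9 FPKM in the libraries where Eif3j2 was at 0 and 11.3 to 14.04 in the others. No fold is given for Eif3j2, and its KO differences did not pass (adjusted p = 0.75 in females and 0.9 in males).

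Genes around these factors were described by lists that hold no member, and their counts stand beside 3.32% of all tested genes past the threshold in KO females, 3.22% in the mean of both KO effects and 5.38% between the sexes within KO. In lists of 12 to 21 genes such shares come to about 1 gene or fewer. Of 18 translation inhibitors and their regulators, 2 rose in female KO: Mknk2, a kinase of eIF4E (5.79 ± 0.457 FPKM in WT, 7.58 ± 0.379 in KO, difference 0.34, SE 0.06, adjusted p = 0.00569), and Eif4ebp2, the main eIF4E-binding inhibitor of the brain (10.5 ± 0.366 and 11.7 ± 0.388, 0.15, SE 0.03, adjusted p = 0.024). In the mean of both KO effects these 2 rose and Pdcd4, an inhibitor of eIF4A, fell (-0.12, SE 0.02, adjusted p = 0.00793). In males alone 0 of the 18 passed, and Eif4ebp2 had a difference of 0.07 (adjusted p = 0.608). Mknk2 had 0.19 in the mean, against 0.34 in females, so its mean call does not show a rise in males. These mean calls were kept in 20 of 20 fits that each leave out 1 library. Without the libraries with high Prl all 3 were lost (adjusted p = 0.0626 for Mknk2, 0.161 for Eif4ebp2 and 0.108 for Pdcd4, at 0.21, 0.10 and -0.10). Without those with high Ttr Mknk2 (0.18, adjusted p = 0.0636) and Eif4ebp2 (0.10, adjusted p = 0.0689) were lost, and with the GC trend removed Mknk2 was (0.14, adjusted p = 0.0576). Cyfip1, which links FMRP to eIF4E, did not pass (-0.14 in females, adjusted p = 0.0685). Both female calls were lower in males within KO, Mknk2 by -0.32 (adjusted p = 0.00595) and Eif4ebp2 by -0.14 (adjusted p = 0.0296). Both calls were lost with the GC trend removed (-0.20 and -0.09, adjusted p = 0.0927 and 0.158) and without the libraries with high Prl (-0.36 and -0.12, adjusted p = 0.0919 and 0.304). Without those with high Ttr Mknk2 kept its call (-0.36, adjusted p = 0.0299) and Eif4ebp2 did not (-0.17, adjusted p = 0.0604). Of the 10 fits that each leave out 1 KO library, Mknk2 kept its call in 10 and Eif4ebp2 in 4.

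Of 12 measured targets and feedback genes of eIF2 phosphorylation, 1 rose in female KO: Impact, an inhibitor of GCN2 that is abundant in neurons (77.5 ± 3.93 FPKM in WT, 86.2 ± 1.81 in KO, 0.15, SE 0.04, adjusted p = 0.034). It also rose in the mean of both KO effects (0.12, adjusted p = 0.0186), a call lost without the libraries with high Ttr (0.10, adjusted p = 0.109) or high Prl (0.12, adjusted p = 0.137), and Chac1, next in that comparison, did not pass (0.14, adjusted p = 0.234). Of 18 genes of ribosome recycling, rescue and re-initiation, 1 fell in female KO: Ddx3x, an X-linked helicase (72.9 ± 3.55 and 63.8 ± 1.55 FPKM, -0.19, SE 0.03, adjusted p = 0.00888). It also fell in the mean of both KO effects (-0.12, adjusted p = 0.00968, and 0.0528 without the libraries with high Prl, at -0.13), where Mcts2 did not pass (0.14, adjusted p = 0.0938). Between WT males and females, Ddx3x was lower (-0.24, adjusted p = 0.00116, and 0.0545 with only the compared groups) and its Y-linked counterpart Ddx3y higher in males.

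Of 21 measured cytosolic aminoacyl-tRNA synthetases and their scaffolds, 1 fell in female KO: Lars, which charges leucine tRNAs (13.7 ± 1.28 and 11.1 ± 0.515 FPKM, -0.28, SE 0.05, adjusted p = 0.0132). Within KO, Lars was higher in males (0.27, SE 0.05, adjusted p = 0.013), a call kept in 10 of 10 fits that each leave out 1 KO library and lost without the libraries with high Ttr (0.25, adjusted p = 0.0978) or high Prl (0.25, adjusted p = 0.207). In the mean of both KO effects none passed, with Eprs at -0.10 (adjusted p = 0.0758) and Lars at -0.12 (adjusted p = 0.0909). Of 13 enzymes that modify translation factors 0 passed in any of the 6 comparisons; the smallest p-values in the mean of both KO effects were those of Dph1 (-0.16, adjusted p = 0.241) and Dph5 (-0.07, adjusted p = 0.256), which build the diphthamide of eEF2. In KO against WT males, 0 genes of these 5 lists passed. Of the 5 female calls, Mknk2 kept its call without the libraries with high Ttr (0.34, adjusted p = 0.0384) and the others did not (0.057 to 0.227), at -0.18 for Ddx3x, 0.16 for Eif4ebp2, 0.12 for Impact and -0.23 for Lars. Without those with high Prl none did (0.0838 to 0.327), at 0.38 for Mknk2, -0.21 for Ddx3x, 0.13 for Eif4ebp2, 0.14 for Impact and -0.25 for Lars. With only the compared groups Lars (adjusted p = 0.0538), Impact (0.0614) and Eif4ebp2 (0.0652) were lost at the same differences, and with the GC trend removed Eif4ebp2 was (0.13, adjusted p = 0.0592). Leaving out 1 female library at a time, Mknk2, Ddx3x and Lars kept their calls in 10 of 10 fits, Eif4ebp2 in 6 and Impact in 4. The median KO difference of the 5 lists in females was -0.02 to 0.02, against 0.0052 over all tested genes.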

How the data were processed

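The authors deposited 1 table per library with FPKM values per gene, per the file headers. FastQC, HISAT2, StringTie and the build mm10 are listed, with no versions, per the submitters' processing notes. For annotation, strand setting and trimming the entry is: not given in the sources used here. Libraries were made from 1.3 µg of total RNA with a SMARTER mRNA kit, per the labels' protocols. Depth is unknown, and no counting interval was computed.

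Genes reaching 0.5 FPKM in at least 5 libraries were fitted as log2(FPKM + 1) by limma-trend (limma 3.58.1 under R 4.3.3) on all 20 libraries with 4 group means, and p-values were adjusted by Benjamini-Hochberg over all 13174 tested genes, with a threshold of 0.05. Differences on this scale understate the change of low genes. The fit was tested on simulated data. Fmr1 was tested by exact permutation over 252 splits. GC content, overlaps and paralog transcripts come from GENCODE M21, promoter windows from RefSeq (GRCm38.p6). Gene coordinates are those of the deposited tables.

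The members, lists and tests were chosen with earlier results of these data known. Named are: members past the threshold; the 8 smallest p-values in each KO comparison and the 5 in each sex comparison; the 10 highest and 3 lowest levels; eIF2 kinases, Eef2k, Eef2 and paralog families; and the extremes of each role. The rule's genes are described by examples, and names outside it (subunits given beside a called one, such as Eif2b2, Eif2b4, Eif3j1, Eif2s1 and Eef1b2, members whose groups did not overlap, such as Eif6, and list genes such as Cyfip1) were chosen after their values were seen. Tried alternatives were robust empirical Bayes, upper-quartile rescaling, a filter of 2 FPKM or none, a pseudocount of 0.1, library weights, the replicate block, GC trend removal (loess, span 0.5), only the compared groups, and leaving out libraries with Ttr above 500 or Prl above 4 FPKM, or each library in turn.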

Additional observations from a re-analysis of the deposited data

Results flagged for a closer look

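In 184 groups of 5 libraries (46 named members in 4 groups), 9 had 1 library far from the other 4 by Dixon's ratio, a rule that chance meets in about 1 of 20 groups. In female KO libraries these were Eef1d in library 4 (7.45 FPKM, the next at 6.72), Eef2k in library 5 (3.83, the next at 4.74), Eif2a in library 2 (9.16, the next at 9.47), Eif3a in library 4 (45.2, the next at 47.3) and Eif4ebp3 in library 5 (1.53, the next at 0.536). In female WT they were Eif2b1 in library 5 (9.29 FPKM, the next at 8.28) and Pabpc1 in library 4 (48.2, the next at 44.3). In male WT they were Eif4e2 in library 2 (6.71 FPKM, the next at 6.24) and Eif3j2 in library 1, listed at 0 with the next at 3.76. Female KO 4 and 5 and female WT 4 are among the 4 libraries with high Ttr, and the part of that RNA in these values was not tested.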

How the results depend on the processing

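Counts of members past the threshold changed with the processing, and the cause was not tested. KO against WT in females went from 1 to 0 with GC trend removal, without the libraries with high Ttr, without those with high Prl, and with only the compared groups. The mean of both KO effects went from 2 to 0 with GC trend removal and without the libraries with high Ttr or high Prl. Males against females within KO went from 4 to 1 with GC trend removal, to 0 without the libraries with high Ttr, to 0 without those with high Prl, and to 2 with only the compared groups. The counts of 0 stayed at 0 for KO against WT in males, the difference of KO effects, and males against females within WT under every alternative run.

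Leaving out 1 library at a time gave 0 to 1 members in females (Eif2a without female WT 1, Eif4e2 without female KO 4, and 0 in the other 8 fits), 0 to 3 for the mean of both KO effects, and 1 to 6 within KO. Same-numbered libraries deviated with correlations of -0.105 to 0.0651, so the numbers were not taken as pairing. With the replicate block the counts were 0 in females, 0 for the mean of both effects and 2 within KO (Eif2a and Eif3a). Of 1405 values of named genes under alternatives, 1270 kept their direction and side of the threshold, 127 lost and 8 gained a call, and none changed direction. The sex difference of Eef1a2 within KO, which changed direction with GC trend removal, is not among these values. Most of the 58 results behind these values were not called in the main fit and could not lose a call. The 1270 therefore do not measure how stable the calls were. Unknown depth limits what can be said of the lowest members.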

Other observations

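Ratios of paralogs, picked after their values were seen and not tested, moved in some groups. The Eif4a2 level was 1.49 ± 0.146 times that of Eif4a1 in male WT and 1.29 ± 0.108 times in male KO (SD, n = 5 each), against 1.34 ± 0.0917 in female WT and 1.26 ± 0.0471 in female KO. The Pabpc1 level was 5.47 ± 0.198 times that of Pabpc4 in female WT and 6.29 ± 0.596 times in female KO, against 6.33 ± 0.472 in male WT and 5.89 ± 0.721 in male KO. Gspt1, the general eRF3, was 1.69 to 2.05 times Gspt2 in every library, with group means of 1.82 to 1.96.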
